A study of Drosophila melanogaster with 6 samples.

Results

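The genes described here are 10 markers of hemocytes, the blood cells of the fly larva, some of which adhere to imaginal discs: Hml, Pxn, NimC1, srp, He, crq, eater, Sr-CI, PPO1 and PPO2. They were taken by name from a comparison of wing discs with haltere discs. All 10 had a row, among 7762 genes in all. The wing disc gives rise to the wing and part of the thorax, and the haltere disc to the haltere, a small club-shaped appendage that senses rotation in flight. There were 3 wing disc samples and 3 haltere disc samples, all of the Canton S strain of Drosophila melanogaster, genotype wild type, at the wandering stage of the third larval instar (L3), with no treatment or transgene named. The mRNA of whole dissected discs was sequenced. The discs were not sorted into cell types, so anything attached to them at dissection was sequenced too.

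Most larval hemocytes are plasmatocytes, macrophage-like cells that engulf bacteria and dying cells and lay down extracellular matrix. A smaller class, the crystal cells, stores the prophenoloxidases that make melanin at wounds. The third class, the lamellocytes, encapsulates parasites and is rare in larvae that carry none. In a whole-disc library, fewer cells of a type and less RNA per cell cannot be told apart.

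The data are the authors' own comparison, gene by gene, without values of single samples. For each gene it holds the log2 fold change, the mean expression over both tissues as log2 CPM (reads of a gene scaled to a common library total), the edgeR p-value and the FDR, which is that p-value adjusted over all rows. The total counts per sample are not given, so the depth is unknown, and no SD can be given. Which tissue is the numerator is not stated. Ubx, the homeotic gene that specifies the haltere, had a log2 fold change of -5.22 in the authors' deposited table (edgeR FDR 2.98e-59), so a value below 0 is taken to mean more RNA in haltere discs. That direction is assumed from Ubx. The wing pouch genes nub and vg had the opposite sign, at 0.81 and 0.82 in the authors' deposited table, although their edgeR FDR values of 0.0878 and 0.195 missed 0.05. All 10 genes of a list of disc epithelium markers, such as nub, vg and wg, had rows, at 4.92 to 9.60 log2 CPM in the authors' deposited table. These are means over both tissues, so they do not test which disc a sample came from. The median log2 fold change of the 10 was -0.22, and 0 of 10 had an FDR under 0.05 (edgeR), against 1.34% of all genes, in the authors' deposited table.

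Reads of all 10 markers were present in the discs, and none of the 10 differed between wing and haltere discs beyond the error of the authors' fit. An FDR under 0.05 (edgeR) was reached by 0 of 10 markers, against 1.34% of all genes in the authors' deposited table. At an unadjusted p-value under 0.05 the count was also 0 of 10, against 4.32% of all genes in the authors' deposited table (edgeR). Against a background this low, a count of 0 among 10 genes says nothing particular about the markers. The smallest p-value was 0.288, for Pxn, and the largest 0.733, for PPO2, both from edgeR in the authors' deposited table.

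All 10 log2 fold changes were below 0, the sign of Ubx, and they lay close together. They ran from -0.54 for srp to -0.18 for crq in the authors' deposited table, with a median of -0.33. On a linear scale that is 1.46-fold to 1.13-fold, in the direction taken as higher in haltere discs. Over all 7762 genes the median was 0.00047, and 49.9% of the log2 fold changes in the authors' deposited table were below 0. The sign was also common in the 14 other gene lists examined together, where 69 of 88 genes were below 0 and 19 above, with a median of -0.35. Those lists were chosen with earlier results of these data known, so they are not an unselected background. Of their fat body, muscle and salivary gland genes, 7 of 8, 15 of 15 and 4 of 4 were below 0. Of their disc epithelium genes, 7 were below 0 and 3 above. Markers of the same cells can move together when the number of those cells moves, so 10 markers are not 10 independent observations, and no test of the shared sign was made. The spread within the set, 0.36 on the log2 scale between the lowest and the highest marker, was smaller than the rough error of 9 of the 10 genes, which is described with the intervals below.

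**Figure D1:**
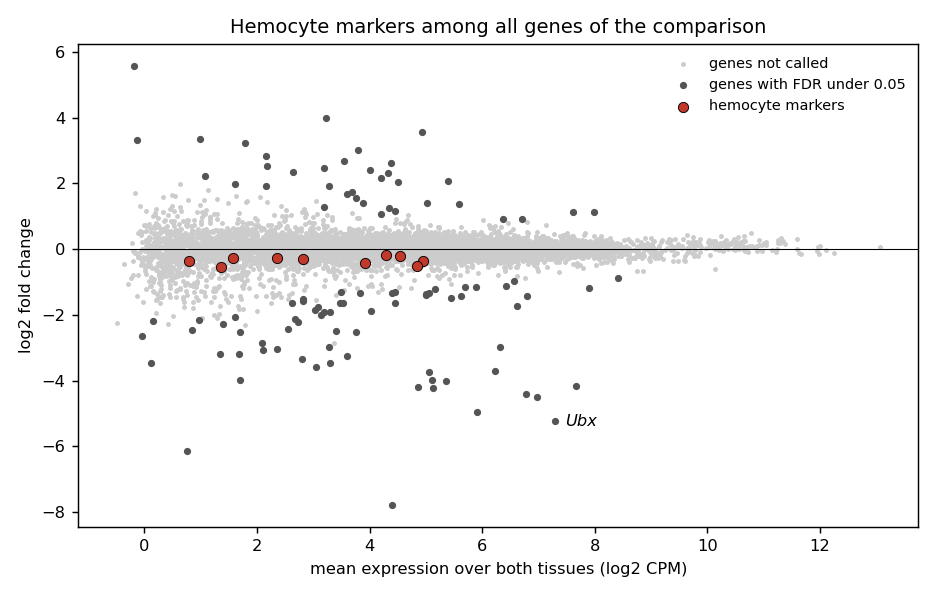
Log2 fold change (vertical axis) against mean expression over both tissues in log2 CPM (horizontal axis), with 1 point per gene: grey for genes not called, dark for the 104 genes with an FDR under 0.05, red for the 10 hemocyte markers. The markers sit just under 0, between -0.54 and -0.18, inside the band of genes that were not called, while Ubx lies at -5.22.

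The markers were expressed at low to middling levels. Mean expression ran from 0.79 log2 CPM for He to 4.94 log2 CPM for Hml in the authors' deposited table, and 7 of the 10 lay below the median of all genes, 4.39 log2 CPM. Together the 10 genes held 0.024% of the summed CPM of all genes. The lowest level of any gene in the authors' deposited table was -0.49 log2 CPM, and the filter on low counts is not stated.

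Levels of different genes can be set side by side only per length. Dividing mean CPM by the summed length of a gene's annotated exons put the crystal cell gene PPO2 first, at 10.2 CPM per kb. The scavenger receptor gene crq followed at 6.90 CPM per kb and PPO1 at 6.51 CPM per kb, with a ratio of only 1.06 between them. Pxn stood at 4.79 CPM per kb. Hml, He, Sr-CI and eater formed a group at 2.61, 2.57, 2.33 and 2.13 CPM per kb, each within 1.11-fold of the next. NimC1 was lower, at 0.91 CPM per kb, and the transcription factor gene srp was lowest, at 0.44 CPM per kb, 23.0-fold under PPO2. No spread over samples is available, so it cannot be said which neighbours in this order differ beyond it. Isoforms that leave out annotated exons would raise the level per kb of long genes such as srp.

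**Figure D2:**
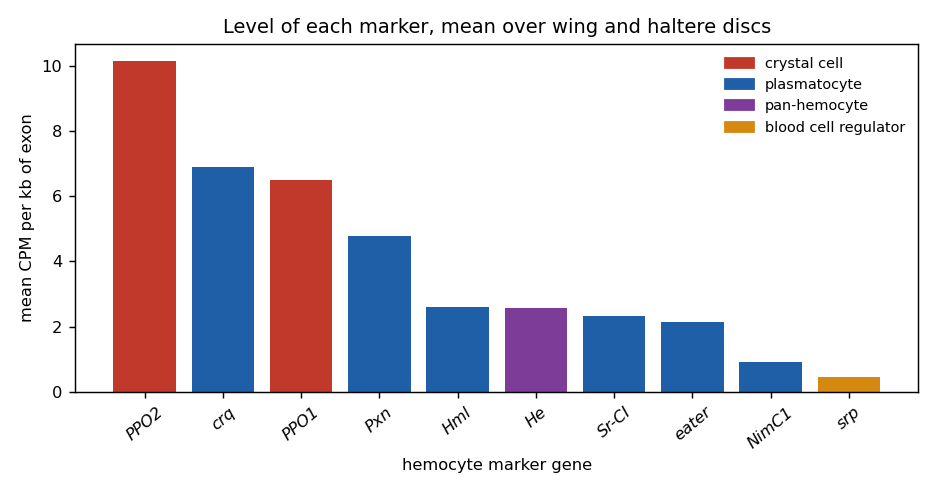
Mean level of each marker over both tissues, in CPM per kb of annotated exon (vertical axis, from 0), 1 bar per gene in falling order and coloured by the cell class it marks. PPO2 is highest at 10.2 and srp lowest at 0.44 CPM per kb; the bars carry no error because no values per sample were available.

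The regulator of the set is srp (serpent), a GATA-family transcription factor needed to make hemocytes. It is also needed in the embryonic fat body and midgut, so it is not restricted to blood cells. The gene lies on chromosome arm 3R (dm6, 15986152 to 16004085, plus strand). Its log2 fold change was -0.54 at 1.37 log2 CPM in the authors' deposited table, and its edgeR p-value was 0.393. All 10 markers had a deposited FDR of 1. The fold change of srp was the lowest of the set, at close to the lowest mean expression. Its exons share 938 bases, 16.1% of their length, with a non-coding RNA gene on the same strand, lncRNA:CR44133, and reads from there could belong to either gene.

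He (Hemese) encodes a glycosylated membrane protein carried by all classes of larval hemocyte. The gene lies on arm 2L (dm6, 13972096 to 13972947, minus strand), 210 bases from NimC1 on the same strand, in a cluster of Nimrod genes. The authors' deposited table gave He a log2 fold change of -0.37 at 0.79 log2 CPM, with a p-value of 0.569 (edgeR). Its mean CPM was the lowest of the set, but with only 673 bases of exon it ranked 6 of 10 per kb. Its exons overlap those of NimB5 on the opposite strand by 78 bases.

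Among the plasmatocyte genes, Hml and Pxn had the highest mean CPM and encode secreted proteins. Hml (Hemolectin) is a large clotting protein of the hemolymph and the standard driver gene for larval plasmatocytes. It lies on arm 3L (dm6, 13846054 to 13860001, plus strand). In the authors' deposited table Hml was at -0.37 and 4.94 log2 CPM, with a p-value of 0.471 (edgeR). Pxn (Peroxidasin) is an extracellular peroxidase that crosslinks collagen IV in basement membranes, and lies on the same arm (dm6, 2601455 to 2630064, minus strand). It was at -0.52 and 4.83 log2 CPM in the authors' deposited table, with a p-value of 0.288 (edgeR), the smallest of the set though ranked only 1228 among all genes. Pxn shares 82 exon bases with CG16986 on the opposite strand and 151 with lncRNA:CR45660 on its own strand.

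NimC1 and eater encode phagocytic receptors of the Nimrod type, with rows of EGF-like repeats outside the cell, that bind bacteria. NimC1 is the antigen of a widely used plasmatocyte antibody, and eater is also needed to attach hemocytes beneath the larval cuticle. NimC1 (arm 2L, dm6, 13973158 to 13976769, minus strand) was at -0.25 and 1.58 log2 CPM in the authors' deposited table, with a p-value of 0.679 (edgeR). For eater (arm 3R, dm6, 27095867 to 27099679, minus strand) the authors' deposited table gave -0.29 at 2.81 log2 CPM, with a p-value of 0.634 (edgeR). The 2 receptors thus had like fold changes at levels that differed 2.34-fold per kb.

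The scavenger receptor genes are crq and Sr-CI. crq (croquemort) encodes a CD36-family receptor with which macrophages take up dying cells, and Sr-CI encodes a class C receptor for bacteria. crq (arm 2L, dm6, 448254 to 453024, minus strand) was at -0.18 and 4.30 log2 CPM in the authors' deposited table, with a p-value of 0.556 (edgeR). Its exons share 448 bases, 15.7% of their length, with those of ex (expanded), a growth regulator transcribed from the opposite strand. In the authors' deposited table ex had a mean expression of 8.13 log2 CPM and a log2 fold change of -0.21. The libraries kept the strand, but the setting used in counting is not stated. Reads of ex may therefore be included in the value of crq, or reads in the shared bases may have been discarded. Sr-CI (arm 2L, dm6, 4121702 to 4124153, plus strand) was at -0.28 and 2.36 log2 CPM in the authors' deposited table, with a p-value of 0.677 (edgeR).

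The crystal cell genes PPO1 and PPO2 encode prophenoloxidases, the copper enzymes that oxidise phenols to melanin precursors. Both lie on arm 2R. PPO1 was at -0.43 and 3.93 log2 CPM in the authors' deposited table, with a p-value of 0.529 (edgeR). PPO2 was at -0.22 and 4.53 log2 CPM in the authors' deposited table, with a p-value of 0.733 (edgeR). Per kb of exon PPO2 was 1.56-fold above PPO1. The median log2 fold change was -0.32 for this pair and -0.33 for the other 8 markers, a difference that was not tested. The prophenoloxidases are related in sequence, and counting may have divided or discarded the reads that align to several of them.

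A p-value that misses a threshold does not show that wing and haltere discs were alike. The width of the error gives only a rough guide to the difference that could have been missed. A rough error was computed as the size of the deposited log2 fold change over the normal quantile that its p-value corresponds to, in place of the standard error that the table does not hold. The rough error ran from 0.31 for crq to 0.69 for PPO1. The deposited p-values were high as a whole. That of Pxn, 0.288 (edgeR), ranked 1228 of 7762 genes, a smaller share than evenly spread p-values would give. Rough errors and intervals taken from such p-values may therefore be too wide, which was not tested. The rough 95% interval of Pxn ran from -1.48 to 0.44 on the log2 scale, that of Hml from -1.37 to 0.64 and that of srp from -1.79 to 0.70. All 10 intervals held 0. In 9 of 10 genes the interval also held -1, a 2-fold difference in the direction taken as higher in haltere discs. For crq it did not, with an interval from -0.79 to 0.42. A 2-fold difference the other way lay within the interval for 2 genes, PPO2 and Sr-CI, whose upper bounds were 1.03 and 1.02. That count depended on the normal quantile. With a t distribution with 4 degrees of freedom in its place, 7 of 10 intervals held 1.

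**Figure D3:**
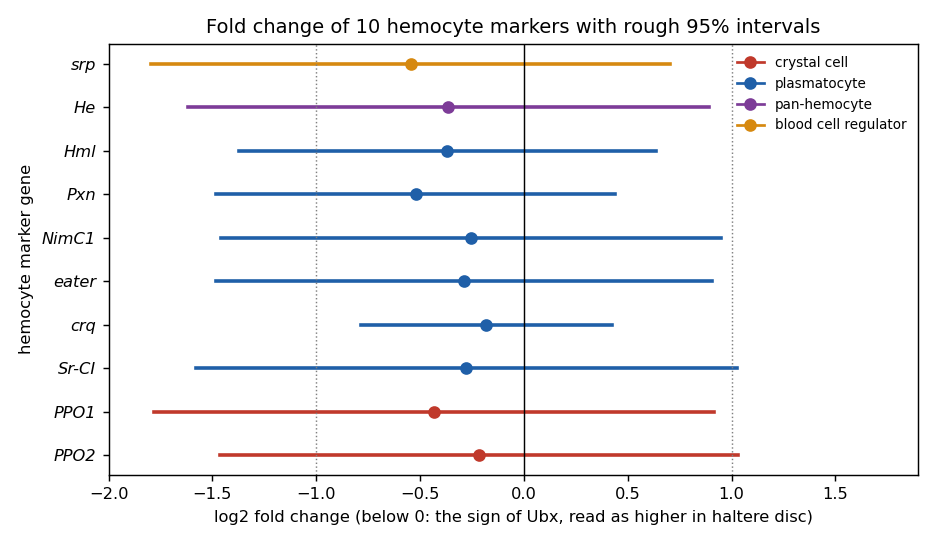
Log2 fold change of each marker (point) with the rough 95% interval implied by its deposited p-value (line), coloured by cell class; dotted lines mark -1 and 1, a 2-fold difference each way. All 10 points lie below 0, all 10 intervals cross 0, and the interval of crq, from -0.79 to 0.42, is the narrowest.

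The other genes give the smallest change that the authors' fit called at these levels. That size depends on the error of the gene called, so a marker with a larger rough error, such as PPO1 or PPO2, would need a larger change. Among genes within 0.5 log2 CPM of a marker, 644 to 1403 per marker, 0.776% to 2.20% were called in the authors' deposited table. The smallest change called among them was 1.06 in size around the level of crq, PPO1 and PPO2, 1.16 around Hml and Pxn, and 2.16 around He. Every marker's fold change was smaller than the smallest one called at its level. In 9 of 10 markers, all but NimC1, the change was larger in size than the median of genes at its level. Of these 9, crq and He lay closest to the median, with 41.6% and 40.1% of genes at their level larger in size. For Pxn 4.43% of the genes at its level had a larger change in size, and for Hml and PPO1 10.7%. For the others the share ran from 23.1% for srp to 53.6% for NimC1. The rough errors of Pxn, Hml and PPO1 were also large for their level, as described next. The rough error is computed from the size of the change, so it is not a separate observation.

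The rough error itself differed among the markers. In the plot of error against level, the genes of the table form a band that falls as expression rises, and PPO1, PPO2, Hml and Pxn lie above it. PPO2 had a rough error of 0.64 against a median of 0.29 for genes at its level, 2.22-fold higher, and 0.508% of those genes had a larger one. PPO1 was 2.12-fold above its median, with 0.633% of genes larger. Hml and Pxn were 1.88-fold and 1.78-fold above theirs, with 1.21% and 1.14% of genes larger. The receptor genes eater and Sr-CI were 1.39-fold and 1.36-fold above, with 4.40% and 5.35% larger.

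The other markers did not stand out in error. The ratio was 1.09 for srp, 1.08 for NimC1 and 1.03 for crq, and He lay at the median of its level. For srp, NimC1 and He expression was low, and the typical error at that level was already 0.57 to 0.64. crq was the exception among the abundant markers: its mean expression was close to that of PPO2, at 4.30 against 4.53 log2 CPM in the authors' deposited table, but its rough error was 0.31 against 0.64. It is also the marker whose exons overlap those of ex, and any bearing of that overlap on its rough error was not tested. These ratios describe single genes, and the error of a gene reflects how its counts varied among the samples of a tissue as the authors' fit estimated it. Which samples varied is not known from this table.

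**Figure D4:**
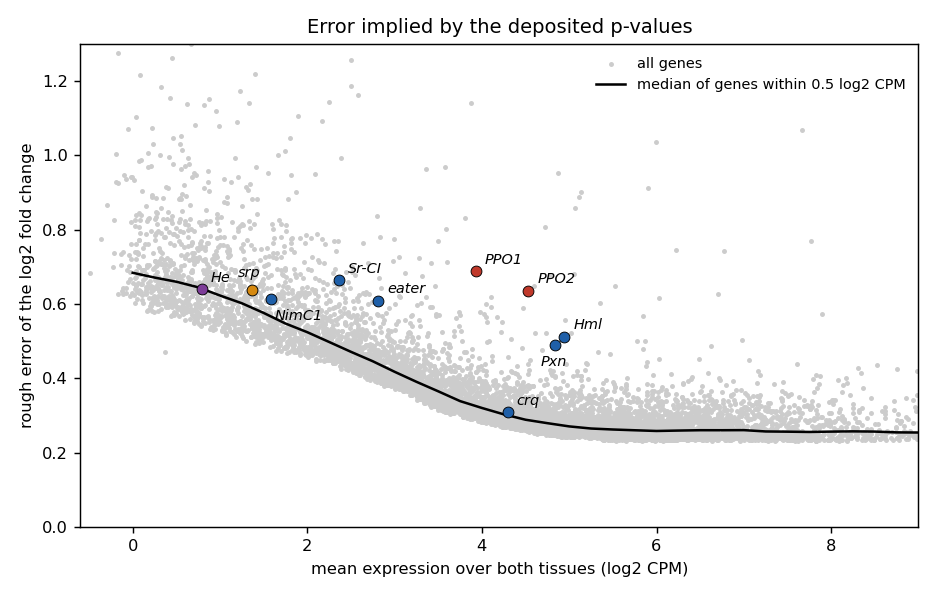
Rough error of the log2 fold change (vertical axis) against mean expression in log2 CPM (horizontal axis) for all genes (grey; a few above the axis limit are not shown) and the 10 markers (coloured by cell class: red crystal cell, blue plasmatocyte, purple pan-hemocyte, orange regulator), with the median of genes within 0.5 log2 CPM as a line. PPO1, PPO2, Hml and Pxn lie 1.78-fold to 2.22-fold above the line, and crq lies on it.

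Further genes of blood cells and their functions were taken as 9 lists, from Nimrod receptors to antimicrobial peptides. Of 75 listed genes 45 had a row, and the other 30 were not analysed here. Only fon, 1 of the 45, had an FDR under 0.05 (edgeR), against 1.34% of all genes, and 6 of 45 had an unadjusted p-value under 0.05 (edgeR), against 4.32% of all genes in the authors' deposited table. Of the 45 genes 33 were below 0, against 49.9% of all genes in the authors' deposited table. The 45 had a median of -0.12, against -0.33 for the 10 markers. fon (fondue) encodes a clotting protein made in the fat body, and was at -3.58 in the authors' deposited table (edgeR FDR 0.000185). Tg, the transglutaminase gene of the clot, was at 1.12 in the authors' deposited table, and its edgeR p-value was 0.0686.

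The genes closest to the markers in function were the remaining Nimrod genes. Of 10 listed, draper included, 4 had a row, and the other 6 were not analysed here. NimC2, a phagocytic receptor gene of the same cluster as NimC1, was at -1.98 and 1.33 log2 CPM in the authors' deposited table, where its edgeR p-value was 0.0158 and its FDR 0.559. NimB4, which encodes a secreted Nimrod protein, was at -0.89 in the authors' deposited table (edgeR p-value 0.202). NimB1 was at -0.32 and drpr (draper), the engulfment receptor that many tissues express, at -0.15 in the authors' deposited table. All 4 with a row were below 0, with a median of -0.60, and 0 of 4 passed 0.05 in the edgeR FDR of the authors' deposited table.

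Of genes of crystal cells and lamellocytes, 4 had rows and 0 passed 0.05 in the edgeR FDR of the authors' deposited table. PPO3, the prophenoloxidase gene of lamellocytes, was at -0.46 and atilla, which encodes a surface antigen of lamellocytes, at -0.90, while the integrin subunit genes ItgaPS4 and ItgaPS5 were at 0.46 and -0.49, all in the authors' deposited table. The lamellocyte genes PPO3 and atilla were present at 0.58 and 0.16 log2 CPM in the authors' deposited table, near its lower end.

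The regulators gcm, Pvf1 and Pvf3 were at -0.73, 0.38 and -0.40 in the authors' deposited table, and 0 of 6 regulators passed an FDR of 0.05 (edgeR). Pvr, the receptor that blood cells need to survive, was at -0.12 in the authors' deposited table. Among 10 genes of the melanization cascade 0 passed, and the smallest p-value was 0.0341 for Sp7, a serine protease that activates prophenoloxidase, at -0.99 in the authors' deposited table (edgeR FDR 0.922). The proteases and enzymes grass and yellow-f of that list were at -0.64 and -0.74 in the authors' deposited table. In the other lists tied to phagocytosis, 0 of 3 scavenger receptors (Sr-CIV, emp and pes) and 0 of 6 genes of the engulfment machinery, such as Rac2, Shark and Ced-6, passed an FDR of 0.05 (edgeR), with log2 fold changes from -0.13 to 0.25 in the authors' deposited table and medians of -0.07 and -0.06.

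Matrix genes, which plasmatocytes share with fat body and other tissues, did not follow one sign. Of 8 basement membrane genes with rows, 5 were below 0 and 3 above, the median was -0.03, and 0 passed 0.05 in the edgeR FDR of the authors' deposited table. SPARC, which encodes a collagen-binding glycoprotein, was at 0.67 (edgeR p-value 0.0253), the perlecan gene trol was at 0.49 and the laminin gene LanA at -0.37, and the collagen IV genes Col4a1 and vkg were at -0.06 and 0.10 in the authors' deposited table. The hemocyte matrix gene Tig (Tiggrin) was at -0.87 in the authors' deposited table (edgeR p-value 0.0245). Of 14 antimicrobial peptide genes 1 had a row, Drs (Drosomycin), at -1.99 with a p-value of 0.0141 (edgeR) in the authors' deposited table.

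Of the other larval tissues that dissected discs can carry, fat body, muscle and salivary gland had list medians below 0 that were larger in size than that of the hemocyte markers. Among the fat body, muscle and salivary gland genes with rows, only the fat body gene Apoltp was above 0, at 1.41 in the authors' deposited table (edgeR FDR 0.515). An FDR under 0.05 (edgeR) with a negative fold change was found for 6 of 8 fat body genes, 9 of 15 muscle genes and 4 of 4 salivary gland genes, against 0.876% of all genes in the authors' deposited table. They were the storage and lipid carrier genes Lsp1alpha, Lsp1beta, Lsp1gamma, Lsp2, Fbp1 and apolpp, the contractile genes Mlc1, Mlc2, Act57B, up, wupA, TpnC73F, Tm2, bt and Mf, and the glue genes Sgs3, Sgs5, Sgs7 and Sgs8. The list medians were -4.19, -1.55 and -3.72 in that order, against -0.33 for the hemocyte markers. The mean CPM of both tissues, summed over the list, was 588 for fat body, 266 for muscle, 85.6 for salivary gland and 137 for the 10 hemocyte markers, and none of these genes was listed at 0. Of 6 tracheal genes 0 passed (edgeR), 3 were below 0 and 3 above, with a median of -0.10, and trh, vvl and btl were at 1.03, 0.49 and -0.76 in the authors' deposited table. These lists were chosen with earlier results of the same data known. The part of such tissue in the values of the hemocyte markers was not tested.

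**Figure D5:**
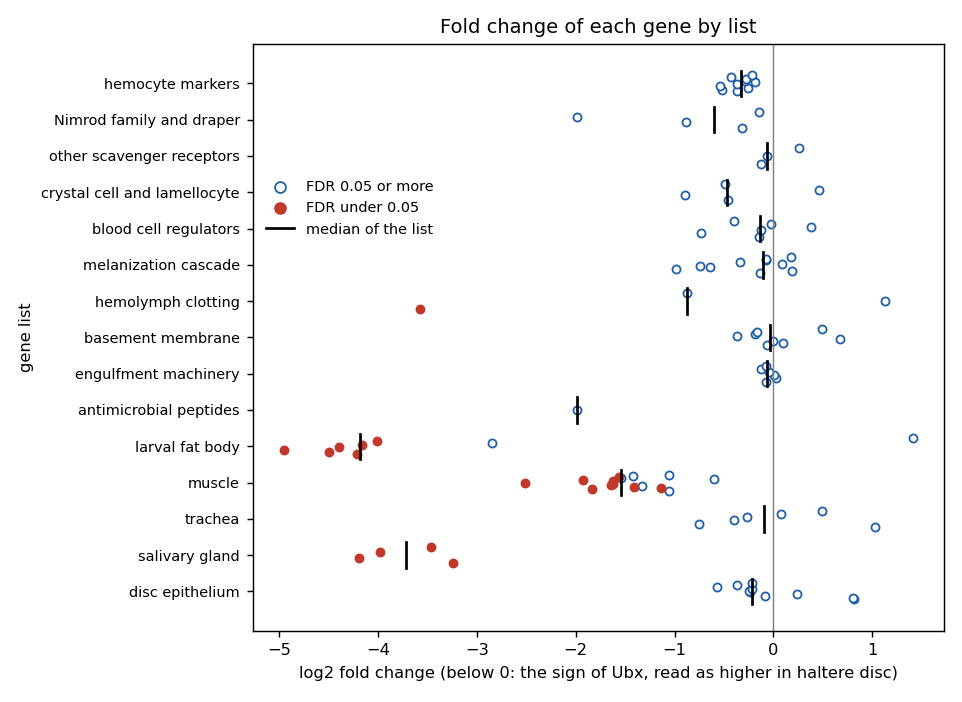
Log2 fold change (horizontal axis) of every listed gene with a row, 1 line per list, with open points for genes with an FDR of 0.05 or more, filled points for genes with an FDR under 0.05 and a bar at the list's median. The hemocyte markers form a tight group around -0.33 with no gene called, while fat body, muscle and salivary gland genes reach medians of -4.19, -1.55 and -3.72.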

How the data were processed

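Strand-keeping mRNA libraries were made from Trizol-extracted, column-cleaned RNA, per the labels' protocols. The submitters' processing notes name HISAT2, HTSeq, edgeR and the build dm6, and which versions, annotation, strand setting, low-count filter and edgeR test were used is not given in the sources used here. The authors deposited 1 table that gives, per the file headers, the log2 fold change, mean log2 CPM, edgeR p-value and FDR of each of 7767 rows, of which 5 are summary lines of the read counter and not genes. These lines were left out of all counts of genes, which leaves 7762. Their share of the CPM total is given in the closing section.

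A gene was called at an authors' FDR under 0.05. No test across samples was run, since the table holds no values per sample, and the replicates are described as independent biological ones in the series' design text. The rough error is the size of the log2 fold change over the normal quantile for the 2-sided p-value, and the rough interval spans 1.96 of it on each side. Neither is the authors' own standard error. Levels per kb use the union of exons in Ensembl release 115, in dm6 coordinates, which matched 98.7% of genes by name or by an unambiguous RefSeq synonym. Computations used Python 3.11.15, numpy 2.4.6, pandas 2.3.3 and scipy 1.17.1, and were tested on simulated data.

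The markers and lists were chosen with earlier results of these data known. The naming rule took all 10 markers, Ubx, and of each other list the called genes or up to 3 genes of smallest p-value. Other genes named (NimB1, Pvr, Col4a1, vkg, CG16986, lncRNA:CR45660, lncRNA:CR44133, NimB5, ItgaPS4, Apoltp, ex) were chosen after their values were seen. Alternatives tried were other FDR thresholds, a Bonferroni adjustment, a minimum level, removal of the summary lines, recentring of the fold changes and, added after seeing the data, a t distribution in place of the normal one and a count without the muscle, fat body and salivary gland lists.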

Additional observations from a re-analysis of the deposited data

Results flagged for a closer look

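Reads assigned to no gene, which HTSeq counts in 5 closing rows, made up 43.3% of the CPM summed over the authors' deposited table, a signal outside the gene comparison. The CPM levels given for the hemocyte markers are relative to a total that includes such reads. Their part in the markers' fold changes was not tested.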

How the results depend on the processing

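The count of hemocyte markers called stayed at 0 of 10 under an FDR under 0.01, an FDR under 0.1, a Bonferroni adjustment, a minimum of 1 log2 CPM and the removal of the summary lines, and every edgeR FDR of the 10 as deposited was 1. The Bonferroni adjustment gave 50 genes called in the whole table against 104, and 10 genes called in the 14 other lists against 20. Without the muscle, fat body and salivary gland lists, a count added after seeing the data, 1 gene of the other lists was called. All 10 fold changes stayed below 0 after the median of all genes was subtracted, and after the median of genes at the same level was subtracted, where the largest shift was 0.072. With a t distribution with 4 degrees of freedom in place of the normal one, 10 rough intervals held 0 and 9 held -1 as before, but 7 held 1 against 2. All 10 errors lay above the median at their level under it too, by 1.02-fold to 2.29-fold. No paired analysis was possible because single-sample values are lacking in the deposited comparison, and for the same reason no replicate could be left out in turn. Whether 1 library carries the sign shared by the markers is therefore not known. How far depth limits the precision of each marker could not be given, since the depth is unknown.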
